A study of Mus musculus with 6 samples.

Results

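The genes described here are 9 transcription factors and receptor genes that mark blood lineages other than macrophages: Tal1, Gata1, Gata2, Lmo2, Ikzf1, Myb, Gfi1, Pax5 and Cd3e. They were chosen by name and are 9 of the 21853 protein-coding genes of the annotation. For each gene, the peaks counted were those that overlapped 1000 bp either side of any of its protein-coding transcription start sites (TSSs), its gene body or the 20 kb upstream of it. Chromatin accessibility had been profiled by ATAC-seq, in which a transposase cuts open DNA, in cultures of skeletal stem and progenitor cells (SSPCs), the marrow stromal cells that give rise to bone and fat. The cultures came from the marrow of tibiae and femora of untreated C57BL/6 mice of 2 ages, labelled young and middle-aged without a number of months, and each age had 3 libraries. All 6 cultures were grown from plated marrow in serum-containing medium and used at the first passage, no sort for a surface marker is described for them, and the labels mention at least 3 mice without saying which library came from which mouse. Every p-value therefore measures only the spread between these libraries.

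Tal1, Gata1, Gata2 and Lmo2 encode proteins that act together. TAL1 is a basic helix-loop-helix factor that binds E-boxes, GATA1 and GATA2 are zinc finger factors that bind GATA motifs, and LMO2 bridges them in complexes that drive stem cell and erythroid genes. Tal1, Gata2 and Lmo2 are also used by endothelial cells. Ikzf1 encodes Ikaros, a zinc finger factor of lymphoid development that is present in most white blood cells, Myb is needed by dividing blood progenitors, and Gfi1 encodes a repressor of stem cells and neutrophil precursors. Pax5 fixes the identity of B cells, and Cd3e encodes a chain of the T cell receptor complex. Marrow plated on plastic is known to carry over macrophages, and the question asked here was which other blood lineages contributed open chromatin at these genes.

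The 9 genes did not behave alike. Tal1, Gata2, Lmo2 and Ikzf1 had a TSS peak in all 6 libraries (4 of 9 genes, or 44.4%, against 48.4% over every protein-coding gene). Gata1, Gfi1 and Cd3e had no called peak anywhere in their loci in any library, 20 kb of upstream sequence included. These were 33.3% of the 9 genes. Of all protein-coding genes, 38.5% had no TSS peak in any library and 22.8% had no peak in the whole locus. The shares with a TSS peak in every library or in none were thus near those of all genes. The size of this split does not set the 9 genes apart. Myb and Pax5 lay between, with a TSS peak in 4 and 3 libraries. A peak list does not say which cells of a culture gave a peak, and fewer open cells and less open chromatin per cell cannot be told apart.

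The libraries themselves differed. The lists held from 27628 peaks in young 3 to 48344 in middle-aged 3, and the background, the mean number of extended reads over each base of the genome, ran from 1.65 in young 3 to 3.75 in young 1. Young 3 had the lowest background and the shortest list. Young 1 had the highest background, yet its list of 35953 peaks was shorter than every list but that of young 3. At regions called in all 6 libraries, the median summit stood at 11.2, 15.5 and 14.6 times the background in the young libraries. In the middle-aged libraries it stood at 17.3, 17.9 and 17.2 times, above every young library, and young 1 was the lowest. The lowest summit that was called stood at 4.86 times the background in young 3 and at 3.47 to 3.75 times in the other 5 libraries, so low regions were harder to call in young 3.

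The sequences of 5 open regions away from start sites are shown first. The Tal1, Lmo2 and Ikzf1 loci each had a region there with a higher mean rank than the TSS peak. This did not hold for every region shown. The Tal1 region at 8430 bp had a mean rank of 49.8, against 57.4 for the Tal1 TSS peak. The Lmo2 region at 12867 bp had 47.2, against 63 for the Lmo2 TSS peak. Each is the 300 bp around the mean summit, read from the RefSeq mouse genome GRCm38.p6 (the mm10 assembly) on the strand of its gene. Capitals mark matches, on either strand, to a GATA motif (AGATAA as well as TGATAA, and the forms that end in G, AGATAG as well as TGATAG), to the ETS motif GAGGAAGT or to an E-box (CAGCTG as well as CAGATG). The first region, 3645 bp upstream of Tal1, held none of these motifs and 25 CpG dinucleotides.
Tal1, 3645 bp upstream, chr4:115052631-115052930, plus strand: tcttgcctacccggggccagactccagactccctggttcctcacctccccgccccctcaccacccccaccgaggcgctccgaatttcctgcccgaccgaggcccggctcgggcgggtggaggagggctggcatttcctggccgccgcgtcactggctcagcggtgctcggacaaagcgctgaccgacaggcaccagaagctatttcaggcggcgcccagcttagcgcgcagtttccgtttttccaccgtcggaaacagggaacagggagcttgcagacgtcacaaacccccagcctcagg
Tal1, 8430 bp upstream, chr4:115047846-115048145, plus strand: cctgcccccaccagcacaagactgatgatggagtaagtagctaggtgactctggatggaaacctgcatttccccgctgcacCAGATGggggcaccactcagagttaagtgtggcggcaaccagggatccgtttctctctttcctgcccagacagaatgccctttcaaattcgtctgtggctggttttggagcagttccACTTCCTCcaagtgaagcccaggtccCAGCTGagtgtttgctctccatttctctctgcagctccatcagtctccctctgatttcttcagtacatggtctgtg
Lmo2, 2114 bp upstream, chr2:103955722-103956021, plus strand: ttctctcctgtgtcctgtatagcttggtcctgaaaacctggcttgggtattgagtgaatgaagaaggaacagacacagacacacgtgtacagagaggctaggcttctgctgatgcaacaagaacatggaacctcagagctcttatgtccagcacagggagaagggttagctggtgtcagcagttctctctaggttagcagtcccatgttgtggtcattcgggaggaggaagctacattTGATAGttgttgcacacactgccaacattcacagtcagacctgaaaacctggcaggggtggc
Lmo2, 12867 bp upstream, chr2:103944969-103945268, plus strand: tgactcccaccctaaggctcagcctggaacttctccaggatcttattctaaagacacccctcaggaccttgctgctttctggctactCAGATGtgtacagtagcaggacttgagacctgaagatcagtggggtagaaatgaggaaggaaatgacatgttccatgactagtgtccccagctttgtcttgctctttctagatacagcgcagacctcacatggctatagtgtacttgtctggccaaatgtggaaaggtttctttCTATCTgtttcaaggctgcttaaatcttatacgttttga
Ikzf1, intron, 78577 bp downstream of the first TSS, chr11:11763430-11763729, plus strand: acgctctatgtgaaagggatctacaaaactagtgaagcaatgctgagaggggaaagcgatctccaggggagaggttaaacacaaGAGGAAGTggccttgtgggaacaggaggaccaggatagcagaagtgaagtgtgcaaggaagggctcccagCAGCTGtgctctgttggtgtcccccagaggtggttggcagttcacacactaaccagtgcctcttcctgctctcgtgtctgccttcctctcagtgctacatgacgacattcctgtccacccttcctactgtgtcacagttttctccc
The Tal1 region at 8430 bp held 1 ETS motif and 2 E-boxes. The Lmo2 region at 2114 bp held 1 GATA motif, the Lmo2 region at 12867 bp held 1 GATA motif and 1 E-box, and the Ikzf1 region at 78577 bp held 1 ETS motif and 1 E-box.

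The second set compares start sites with and without a peak, and here capitals mark CpG dinucleotides. The Tal1, Myb, Pax5 and Lmo2 windows surround or lie beside the mean summit, and those of Gata1, Gfi1 and Cd3e are the bases just before the RefSeq start site. Stretches annotated as untranslated were left out, which is why some windows are short. Gata2 and Ikzf1 are not shown for that reason, and of the 2 Gfi1 windows 1 is shown.
Tal1, open in all 6 libraries, chr4:115056894-115057193, plus strand: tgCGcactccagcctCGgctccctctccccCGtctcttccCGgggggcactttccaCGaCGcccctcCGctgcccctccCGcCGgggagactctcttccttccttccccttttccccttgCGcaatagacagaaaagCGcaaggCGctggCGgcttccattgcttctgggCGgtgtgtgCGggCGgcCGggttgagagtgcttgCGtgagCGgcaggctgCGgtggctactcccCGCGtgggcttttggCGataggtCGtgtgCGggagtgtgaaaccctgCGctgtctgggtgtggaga
Lmo2, open in all 6 libraries, chr2:103969414-103969527, plus strand: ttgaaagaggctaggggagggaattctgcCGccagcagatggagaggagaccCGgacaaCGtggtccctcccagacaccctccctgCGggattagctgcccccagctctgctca
Lmo2, open in all 6 libraries, chr2:103970002-103970128, plus strand: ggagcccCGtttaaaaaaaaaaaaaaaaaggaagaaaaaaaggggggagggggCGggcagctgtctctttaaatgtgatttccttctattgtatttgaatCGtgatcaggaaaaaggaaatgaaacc
Myb, open in 4 libraries, chr10:21160985-21161213, minus strand: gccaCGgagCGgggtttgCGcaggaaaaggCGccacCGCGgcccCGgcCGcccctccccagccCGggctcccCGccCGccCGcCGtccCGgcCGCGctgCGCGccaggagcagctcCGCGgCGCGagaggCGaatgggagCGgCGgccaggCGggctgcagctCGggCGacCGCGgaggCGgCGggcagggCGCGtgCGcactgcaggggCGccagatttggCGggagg
Pax5, open in 3 libraries, chr4:44704400-44704699, minus strand: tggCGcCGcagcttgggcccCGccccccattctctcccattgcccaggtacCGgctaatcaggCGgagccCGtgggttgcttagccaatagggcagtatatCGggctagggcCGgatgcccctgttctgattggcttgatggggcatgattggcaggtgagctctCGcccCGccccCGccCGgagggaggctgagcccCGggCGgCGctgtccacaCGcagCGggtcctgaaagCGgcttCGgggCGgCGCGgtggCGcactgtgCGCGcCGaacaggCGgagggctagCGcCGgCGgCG
Gata1, open in none, chrX:7967911-7968160, minus strand: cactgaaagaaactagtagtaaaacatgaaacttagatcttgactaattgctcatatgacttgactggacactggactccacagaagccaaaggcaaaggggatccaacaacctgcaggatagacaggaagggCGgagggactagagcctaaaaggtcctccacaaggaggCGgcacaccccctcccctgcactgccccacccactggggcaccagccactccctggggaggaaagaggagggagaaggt
Gfi1, open in none, chr5:107725806-107725954, minus strand: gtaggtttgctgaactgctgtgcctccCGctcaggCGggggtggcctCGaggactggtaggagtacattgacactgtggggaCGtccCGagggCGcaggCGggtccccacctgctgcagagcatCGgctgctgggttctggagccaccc
Cd3e, open in none, chr9:45009614-45009861, minus strand: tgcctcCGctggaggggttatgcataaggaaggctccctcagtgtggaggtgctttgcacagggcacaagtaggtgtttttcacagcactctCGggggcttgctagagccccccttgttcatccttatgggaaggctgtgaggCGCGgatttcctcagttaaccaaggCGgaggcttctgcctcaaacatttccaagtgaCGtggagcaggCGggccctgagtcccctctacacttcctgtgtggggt
The Tal1 and Pax5 windows held 26 and 31 CpG dinucleotides in 300 bases, and the Myb window held 37 in 229. The Gata1 and Cd3e windows held 2 in 250 bases and 7 in 248. Lmo2 and Gfi1 did not follow this contrast in these short windows, since the 2 open Lmo2 windows held 4 in 114 bases and 3 in 127, and the closed Gfi1 windows held 8 in 149 bases and 9 in 250.

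The stem cell and erythroid factors were examined gene by gene. Tal1 lies at chr4:115056426-115071755 on the plus strand and has 4 annotated coding start sites. The best peak in its TSS windows ranked at the 53.5, 59.5 and 50.4 percentiles of the young lists and the 63.4, 72.3 and 45.8 percentiles of the middle-aged lists, where the rank orders the peaks of a library by −log10 q and 100 is the strongest. The ages overlapped, since middle-aged 3 held the lowest value and middle-aged 2 the highest. The region spanned chr4:115056612-115057533 and lay downstream of the first start site, over an untranslated exon.

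Gata2, at chr6:88193891-88207032 on the plus strand, had the weakest TSS peak of the 4 genes that were open throughout. Its ranks were 33.8, 56.7 and 8.28 in the young and 44.2, 46.5 and 47.3 in the middle-aged libraries. Young 3 stood far below the rest, and the middle-aged libraries lay inside the young range. The peak sat in the exon downstream of the second start site, at chr6:88198484-88198860. Gata1, the factor that takes over from Gata2 as red cells mature, had 0 peaks over chrX:7959260-7998071.

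Lmo2, at chr2:103957986-103981878 on the plus strand, has 7 start sites, and the open TSS regions lay at those farther downstream. Ranks were 52.6, 55.5 and 55.8 in the young and 75, 75.9 and 63.4 in the middle-aged libraries. Every middle-aged library lay above every young one. A pair of regions accounted for these peaks, at chr2:103969383-103969716 and chr2:103969870-103970507. The second was the stronger in all libraries but young 1. No peak overlapped the window of the first Lmo2 start site, although a region 2114 bp upstream of it was called in all 6 libraries.

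Among the lymphoid and progenitor factors, Ikzf1, at chr11:11685003-11772926 on the plus strand, had the strongest TSS peak. Its ranks were 64.9, 69.5 and 45.8 in the young and 77.5, 77 and 77.4 in the middle-aged libraries. The middle-aged values were close together and all above the young ones, of which young 3 was the lowest. The region, chr11:11685525-11686417, lay over untranslated exon sequence by the first start sites.

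Myb, at chr10:21124935-21160984 on the minus strand, had a TSS peak in young 1 and in all 3 middle-aged libraries. It ranked at 18.2 in young 1 and at 16.4, 31.5 and 41.4 in the middle-aged libraries, so it was a weak peak wherever it was called. The summits stood at 5.33 times the background in young 1 and at 5.90, 7.49 and 7.88 times in the middle-aged libraries. In young 3, 5% of called peaks were below 7.29 times the background, and in young 2 below 4.95 times.

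Pax5, at chr4:44524757-44710487 on the minus strand, had a TSS peak in all 3 middle-aged libraries and in no young library. The ranks were 51.7, 13.8 and 51.8, and the summits stood at 9.45, 6.24 and 9.67 times the background. In the 3 young libraries, 5% of called peaks lay below 4.53, 4.95 and 7.29 times the background. The heights in middle-aged 1 and 3 lay above that level of every young library, and middle-aged 2 lay below that of young 3. Heights were in general greater in the middle-aged libraries, by a median of 0.48 on the log2 scale at start sites open throughout. The Pax5 heights were not adjusted for that, so the comparison does not say whether young libraries would have called such a peak. The region, chr4:44704288-44704732, was centred 544 bp upstream of a start site used by shorter Pax5 transcripts and lay in an intron of longer ones. Peaks in middle-aged libraries only were uncommon among protein-coding genes, of which 0.476% had a TSS peak in all 3 middle-aged and no young library.

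Gfi1, at chr5:107716657-107726036 on the minus strand, and Cd3e, at chr9:44998740-45009627 on the minus strand, had 0 peaks in every library. The same held for Gata1, so no sign of open chromatin was called at the genes for the erythroid factor, the neutrophil repressor and the T cell receptor chain. A list holds only what passed its threshold, so a gene without a peak is one at which none was called.

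**Figure D1:**
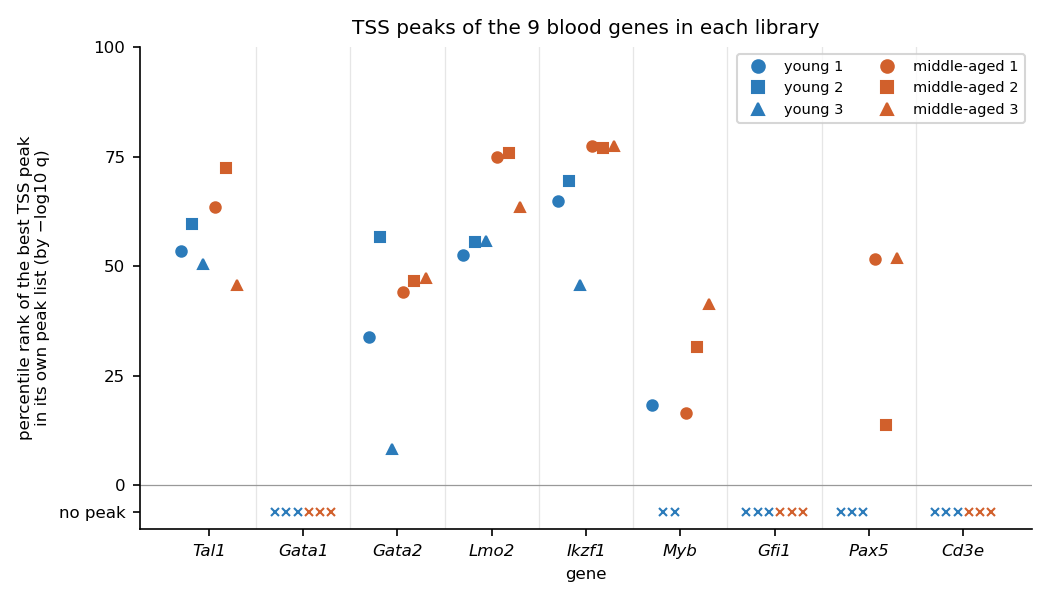
The vertical axis is the percentile rank, by −log10 q in its own peak list, of the strongest TSS peak of each of the 9 genes on the horizontal axis. Each symbol is 1 library, blue for young and orange for middle-aged, and crosses mark libraries with no peak. Tal1, Gata2, Lmo2 and Ikzf1 have 6 symbols each, Myb has 4, Pax5 has 3 orange symbols, and Gata1, Gfi1 and Cd3e have crosses only.

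Over the 6 libraries, the mean rank fell from Ikzf1 (68.7 ± 12.3, SD, n = 6) to Lmo2 (63.0 ± 10.3), Tal1 (57.4 ± 9.60) and Gata2 (39.5 ± 16.9). None of the 3 steps between neighbours passed an adjusted p of 0.05, and the step from Tal1 to Gata2 was the only one larger than the SD of the difference over libraries. Ikzf1 ranked above Lmo2 in 5 of 6 libraries, with a mean difference of 5.65 ± 9.59 (SD, two-sided exact sign permutation test, p = 0.156, adjusted p = 0.188). Lmo2 ranked above Tal1 in 4 of 6 libraries, with a mean difference of 5.59 ± 7.98 (exact sign permutation test, p = 0.188, adjusted p = 0.188). Tal1 ranked above Gata2 in 5 of 6 libraries, with a mean difference of 18.0 ± 15.9 (exact sign permutation test, p = 0.0625, adjusted p = 0.188). P-values were adjusted by the Benjamini-Hochberg method over the 3 steps. The order and its neighbours were taken from the mean ranks of these same 6 libraries. The direction of each step was thus set before its test, and the p-values are no independent check of the order.

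These were low ranks for start sites. The median mean rank of the 10569 genes with a TSS peak in all 6 libraries was 84.9, with quartiles of 71.6 and 93.3. Gata2 lay at the 2.87 percentile of these genes, Tal1 at the 11, Lmo2 at the 15.4 and Ikzf1 at the 21.5 percentile. All 4 lay below the lower quartile of open start sites.

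The age comparison asked whether more of these genes were open in middle-aged cultures. The number of the 9 genes with a TSS peak was 5, 4 and 4 in the young libraries and 6 in each middle-aged library. The groups did not overlap. The means were 4.33 ± 0.577 (SD, n = 3) and 6 ± 0 (SD, n = 3), a difference of 1.67 genes (two-sided exact permutation test, p = 0.1). With 3 libraries against 3 the smallest two-sided p is 0.1, so no count could pass 0.05. The difference rested on Myb and Pax5. When every list was cut to its 27628 best peaks, the difference was 0.667 genes (exact permutation test, p = 0.4), Pax5 was open in 2 more middle-aged than young libraries and Myb in 0 more.

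Myb and Pax5 both had a TSS peak in at least 2 more middle-aged than young libraries, and no gene of the 9 had the reverse. Among all protein-coding genes 2.78% had at least 2 more middle-aged libraries and 0.11% at least 2 more young ones. Of the 2878 genes with a TSS peak in 1 to 5 libraries, 21.1% had at least 2 more middle-aged libraries. The 2 genes are too few to read against that share.

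Among the 4 genes open throughout, the rank difference between the ages was 6.02 percentile points for Tal1, 13.1 for Gata2, 16.8 for Lmo2 and 17.2 for Ikzf1, middle-aged minus young. For Lmo2 the means were 54.6 ± 1.76 (SD, n = 3) and 71.5 ± 7.01 (SD, n = 3) with no overlap (two-sided exact permutation test, p = 0.1, adjusted p = 0.2). For Ikzf1 they were 60.1 ± 12.6 (SD, n = 3) and 77.3 ± 0.289 (SD, n = 3), again with no overlap (exact permutation test, p = 0.1, adjusted p = 0.2). The Tal1 means were 54.4 ± 4.61 (SD, n = 3) and 60.5 ± 13.5 (SD, n = 3) and overlapped (exact permutation test, p = 0.6, adjusted p = 0.6). The Gata2 means were 32.9 ± 24.2 (SD, n = 3) and 46.0 ± 1.62 (SD, n = 3), also with overlap (exact permutation test, p = 0.4, adjusted p = 0.533). Single libraries decided the size of several differences. The Gata2 difference was 0.748 points without young 3 and 25 without young 2, the Tal1 difference was 0.127 without middle-aged 2 and 13.4 without middle-aged 3, and the Ikzf1 difference was 10.1 without young 3.

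A gap between the ages was common at start sites. Of the 10569 genes with a TSS peak in all 6 libraries, 30.6% ranked higher in every middle-aged than in every young library, and the median rank difference of these genes was 4.97 points (quartiles 1.56 and 10.6). Lmo2 and Ikzf1 lay at the 88.3 and 88.9 percentiles of that difference, Gata2 at the 81.4 and Tal1 at the 56.1 percentile. When lists of equal length were used, the Tal1 and Gata2 differences turned to -9.56 and -9.88 points, the Lmo2 difference was 10 points (exact permutation test, p = 0.4) and the Ikzf1 difference was 10.7 points (exact permutation test, p = 0.1).

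The summit heights, which are the number of extended reads at the peak divided by the background of the library, were compared in the same way. Ikzf1 stood at 12.3, 16.6 and 15.2 times the background in the young and at 20.9, 22.5 and 20.8 times in the middle-aged libraries, with no overlap. Lmo2 stood at 9.07, 12.4 and 17.0 times in the young and at 19.3, 20 and 14 times in the middle-aged libraries, where young 3 exceeded middle-aged 3. Tal1 heights were 10.4, 14.5 and 15.8 in the young and 16.5, 21.2 and 12.2 in the middle-aged libraries. Gata2 heights were 7.20, 10.6 and 8.5 in the young and 9.84, 10.4 and 10.4 in the middle-aged libraries.

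On the log2 scale the height difference, middle-aged minus young, was 0.55 for Ikzf1, 0.50 for Lmo2, 0.28 for Tal1 and 0.24 for Gata2. The exact permutation test gave p = 0.1 for Ikzf1, p = 0.2 for Lmo2 and p = 0.4 for Tal1 and Gata2, with an adjusted p of 0.4 for each. The median difference of all genes open throughout was 0.48, and 60.7% of them had a higher summit in every middle-aged than in every young library. Relative to that median, the differences were 0.07 for Ikzf1, 0.02 for Lmo2, -0.20 for Tal1 and -0.24 for Gata2. These distances from the median were not tested. The Tal1 difference ran from 0.0879 without middle-aged 2 to 0.489 without middle-aged 3, the Gata2 difference from 0.105 without young 1 to 0.384 without young 2, and the Lmo2 difference was 0.273 without young 1.

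The genes whose log2 summit heights ran most alike over the 6 libraries were other open start sites of no fixed kind. For Tal1 they were Agmo (Pearson r = 0.9885) and Msrb2 (r = 0.9833), and for Gata2 they were Slc45a4 (r = 0.9975) and Imp3 (r = 0.9944). For Lmo2 they were Rngtt (r = 0.9935) and Tapbp (r = 0.9920), and for Ikzf1 they were Scfd2 (r = 0.9994) and Tnfaip8 (r = 0.9990). These are the best of 10568 genes over 6 libraries that share depth and background, and they are a description only.

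Peaks were then counted over the whole loci. The 9 loci held 116 called peaks, of which Ikzf1 had 36, Lmo2 33, Tal1 27, Gata2 10, Myb 5 and Pax5 5. By library there were 21, 17 and 16 peaks in the young and 20, 22 and 20 in the middle-aged libraries. The ages overlapped, with young 1 above both middle-aged 1 and middle-aged 3. The means were 18.0 ± 2.65 (SD, n = 3) and 20.7 ± 1.15 (SD, n = 3), and the middle-aged mean was 1.15 times the young one (two-sided exact permutation test, p = 0.3). Per 10000 called peaks of the same library, the loci held 5.84, 3.87 and 5.79 peaks in the young and 4.31, 4.71 and 4.14 in the middle-aged libraries. The ratio of those means was 0.849 (exact permutation test, p = 0.4), so the direction of the difference was set by whether the length of the list was taken into account.

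**Figure D2:**
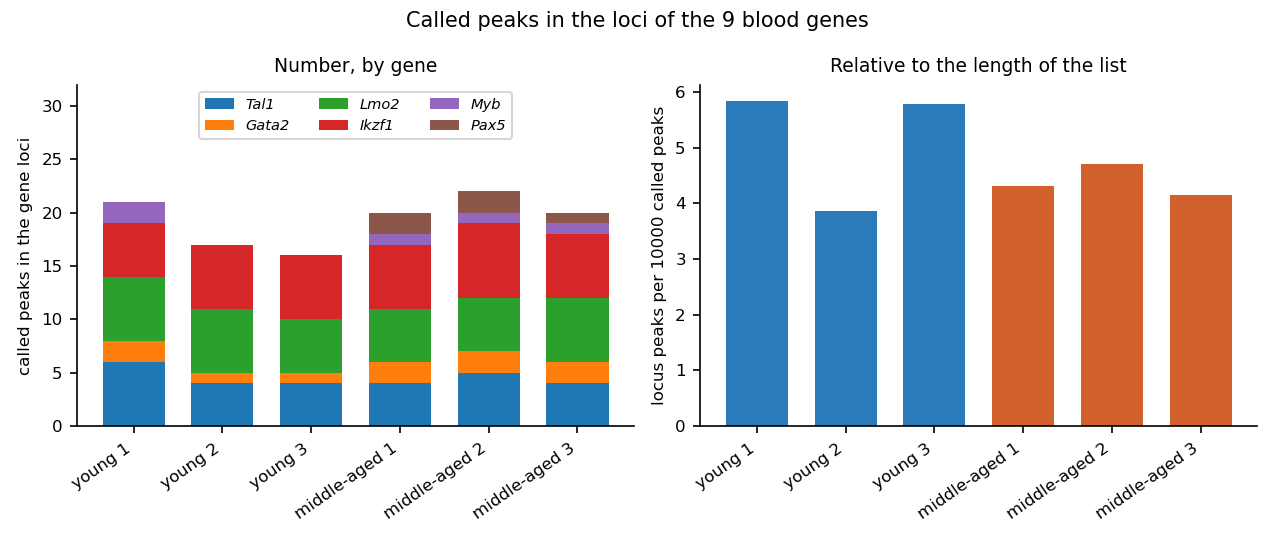
The left panel stacks the number of called peaks in the loci by gene for each library, and the right panel gives the same total per 10000 called peaks of the library, blue for young and orange for middle-aged. Ikzf1, Lmo2 and Tal1 make up most of every bar, Pax5 appears in middle-aged libraries only, and totals run from 16 in young 3 to 22 in middle-aged 2.

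Merging the peaks of all libraries where they overlapped gave 26 regions in the loci, 9 upstream of a gene, 9 in introns and 8 over exons. Of these, 12 were called in all 6 libraries (46.2%, against 35.1% of all 63840 merged regions and a median of 50% per gene locus over the 16872 genes with a region) and 5 in a single library (19.2%, against 23% of all). Of the 12, 5 lay in a TSS window, and the matching share over all regions called throughout was not computed. The other 7 were distal, in Tal1, Lmo2 and Ikzf1. None of the 26 overlapped the TSS window of another protein-coding gene. Regions were dense at Tal1, with 17.0 per 100 kb of locus, and at Lmo2, with 13.7, against a median of 4.02 over all protein-coding genes. Ikzf1 had 6.49, Gata2 6.03, Myb 3.57 and Pax5 1.46 per 100 kb.

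The strongest regions were distal. The Tal1 region 3645 bp upstream, chr4:115052534-115053019, ranked at 83.6, 88.5 and 66.5 in the young and 85.1, 84.5 and 83.3 in the middle-aged libraries, above the Tal1 TSS peak of the same library in all 6. Its mean rank of 81.9 was the highest of the 26 regions. The ages overlapped. The Ikzf1 intron region at 78577 bp, chr11:11763140-11763783, had a mean rank of 79.7, and the Lmo2 region at 2114 bp had 69.7. The weakest region that was called in all 6 libraries was an Ikzf1 intron region at chr11:11689943-11690481, with a mean rank of 21.9.

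Over the 12 regions called in all 6 libraries, the median mean rank was 58.8, against 69.9 over all 22403 such regions. In 3 of the 12 (25%) every middle-aged library ranked above every young one. These were the Ikzf1 TSS region, the stronger Lmo2 TSS region and the Lmo2 region at 2114 bp. The same held for 24.3% of all regions called throughout. The reverse order was seen in 0 of the 12 and in 0.495% of all such regions.

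The Lmo2 region at 2114 bp, chr2:103955703-103956107, ranked at 70.7, 64.2 and 57.3 in the young and 78.7, 75.8 and 71.5 in the middle-aged libraries. An Lmo2 intron region, chr2:103965551-103965820, went the other way in number, with ranks of 24.3, 11.3 and 29.5 in the young libraries and a peak in middle-aged 3 only, at 7.09. A weak region 4094 bp upstream of Gata2, chr6:88189571-88190035, was called in young 1 and all 3 middle-aged libraries at a mean rank of 1.75, and the nearest start site was that of the long noncoding RNA gene Gm38708, 884 bp away.

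The Pax5 region described above was the only one of the 26 that was called in all 3 middle-aged and no young library (3.85%, against 2.21% of all merged regions). None was called in all 3 young and no middle-aged library (0%, against 0.036%). Leaving out young 1 raised the number of regions specific to an age from 1 to 3, all of them middle-aged, and leaving out young 2 or middle-aged 3 raised it to 2. With lists of equal length it was 0.

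**Figure D3:**
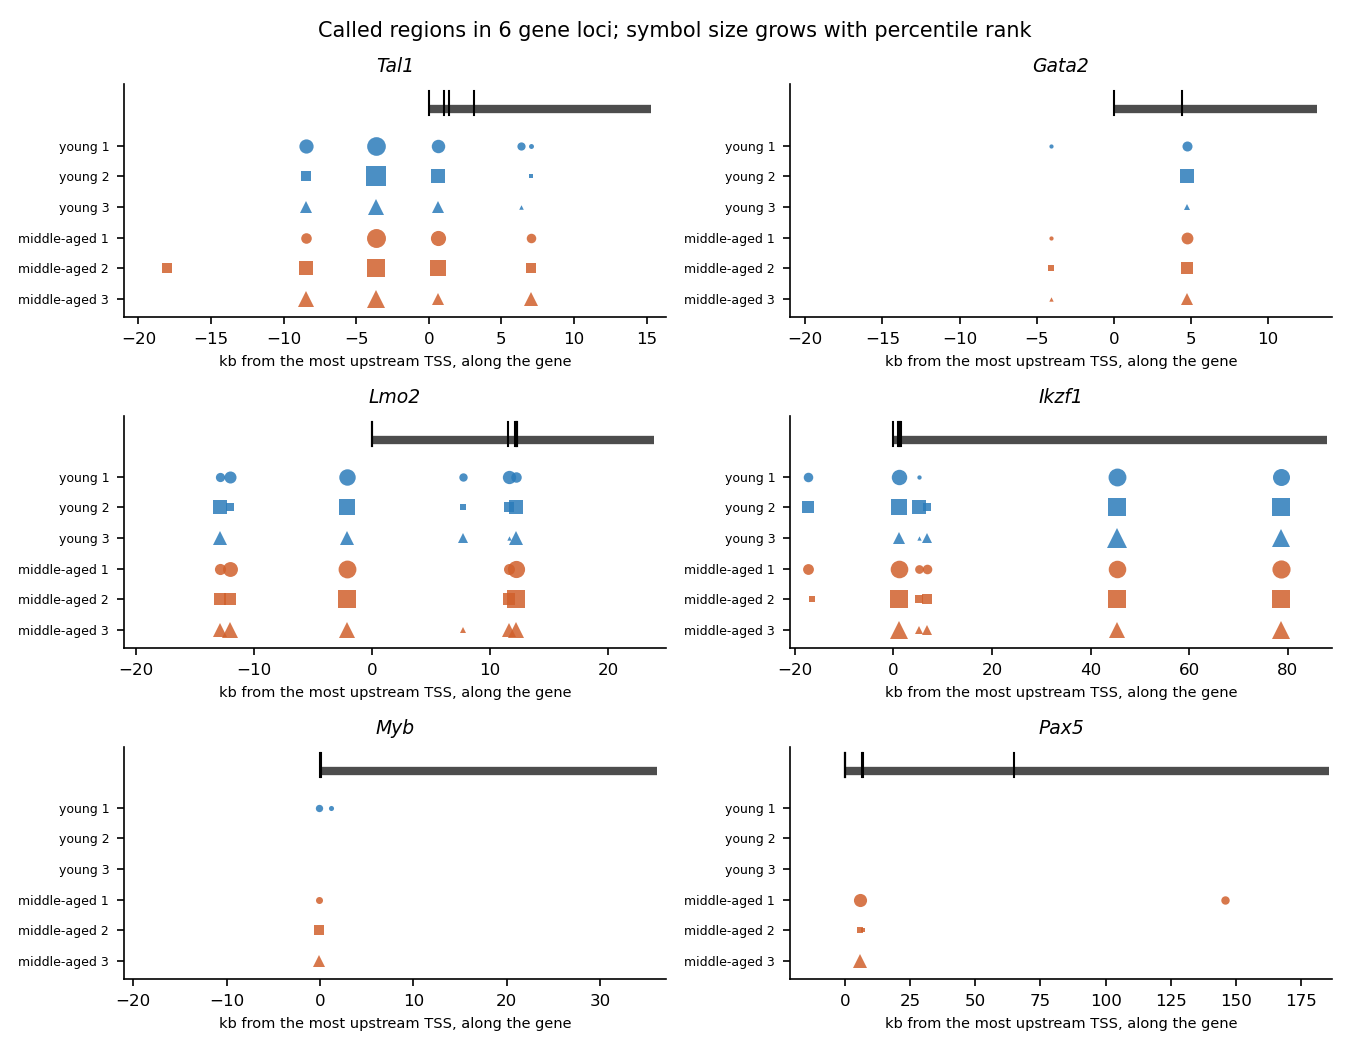
Each panel is the locus of 1 gene that had a called region, with distance in kb from its most upstream TSS on the horizontal axis and 1 row for each library. Symbols mark region summits and grow with the percentile rank, the dark bar is the gene body and the ticks above it are coding start sites. Tal1, Lmo2 and Ikzf1 have columns of 6 symbols away from their start sites, and the Pax5 column closest to its start sites has middle-aged symbols only.

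Motif letters in the 12 regions called throughout were compared with those in all 22403 regions of the same width. A GATA motif was present in 2 of the 12 (16.7%, against 22.3% of all) and the ETS motif in 2 (16.7%, against 9.4%). An E-box was present in 6 (50%, against 32.7%). An AP-1 motif, TGACTCA or its reverse complement TGAGTCA, was present in 0 of the 12, against 12.9% of all. Both strands were searched, and no motif of one kind contains a motif of another kind. The median GC content was 56.5% in the 12 and 55% in all. These matches are letters in a window and no evidence of binding.

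CpG content ran alongside the split among the genes. The ratio of observed to expected CpG in the 500 bp either side of a start site is high in CpG island promoters, and the highest ratio over the start sites of each gene was used. Ikzf1 had 0.98, Lmo2 0.90, Tal1 0.80 and Gata2 0.77, and these were the 4 genes open throughout. Myb and Pax5 both had 0.85. Gfi1 had 0.62, Gata1 0.31 and Cd3e 0.29, and these were the 3 genes with no peak. The 3 closed genes were thus the 3 with the lowest ratios.

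The same relation held over all protein-coding genes. Of the quartile with the lowest ratios, 4.26% had a TSS peak in all 6 libraries and 89.8% in none. In the next quartile 31.2% were open in all 6 and 49.7% in none, and in the third 72.8% and 10.2%. Of the quartile with the highest ratios, 85.2% were open in all 6 and 4.16% in none. Ikzf1 lay at the 96.1 percentile of all genes, Lmo2 at 89.6, Pax5 at 82.7, Myb at 82.3, Tal1 at 75.7, Gata2 at 69.8, Gfi1 at 50.5, Gata1 at 28.8 and Cd3e at 27.6. The part of CpG content in the open start sites of these genes was not tested.

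**Figure D4:**
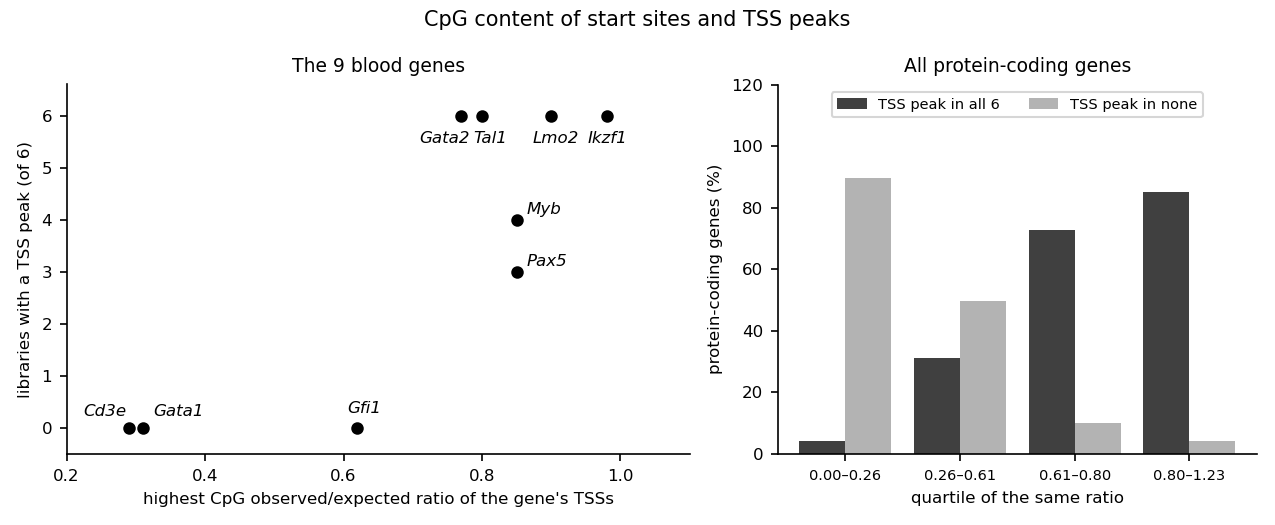
The left panel plots, for each of the 9 genes, the number of libraries with a TSS peak against the highest observed over expected CpG ratio of its start sites. The right panel gives the percentage of genes open at a TSS in all 6 libraries (dark bars) or in none (light bars) over quartiles of the same ratio among all protein-coding genes. Cd3e, Gata1 and Gfi1 sit at 0 libraries with ratios of 0.29 to 0.62, and the other 6 genes have ratios from 0.77 to 0.98.

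The other genes of these lineages were counted from marker lists. Among 12 stem and progenitor genes, Hlf, Meis1 and Runx1 had a TSS peak in all 6 libraries, and Kit and Slamf1 had none in any. Kit encodes the stem cell factor receptor. The list held 5, 6 and 3 open genes in the young and 9, 8 and 8 in the middle-aged libraries. Every middle-aged library lay above every young one. The peak lists were also shorter in every young library (35953, 43941 and 27628 peaks) than in every middle-aged one (46364, 46745 and 48344). These counts were not repeated with equally long lists, and the matching counts per library over all genes were not computed. The gap is therefore not read as a trait of these genes. Cd34 and Fli1 were open in all 3 middle-aged and no young library, and Flt3 in 2 middle-aged and no young library, so 3 of 12 genes had at least 2 more middle-aged libraries, against 2.78% of all genes. Of the list, 6 genes were open in 1 to 5 libraries, and among all such genes the share was 21.1%. Fli1 and Cd34 are also expressed by endothelial cells.

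Erythroid genes were closed more often than not. Tfrc, the transferrin receptor that most dividing cells use, Nfe2 and Ank1 had a TSS peak in all 6 libraries. The globin genes Hbb-bt, Hbb-bs, Hba-a1 and Hba-a2 had none in any library, and neither had Slc4a1, the anion exchanger of red cells, and Alas2, which starts heme synthesis in them. In all, 3 of 15 were open in all 6 libraries and 9 in none (60%, against 38.5% of all genes). Klf1, the erythroid Krüppel-like factor, was open in 1 young and 3 middle-aged libraries. The near-identical globin copies share reads and are uncertain one by one.

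Megakaryocyte, mast cell and B cell genes were closed with few exceptions. Of 7 megakaryocyte genes, Pf4 was open in all 6 libraries and the other 6 in none (85.7%, against 38.5% of all genes). Itga2b, Gp9, Gp1ba, Ppbp and Vwf were among those 6. None of 7 mast cell and basophil genes had a TSS peak in any library, Cpa3 and Fcer1a included (100% in none, against 38.5% of all genes). Of 12 B cell genes, 11 had none (91.7%, against 38.5% of all genes). Among them were Cd79a, Cd79b, Ms4a1, Vpreb1 and Igll1, which encode surface proteins and receptor parts of B cells. Blnk, a signalling adaptor, was open in all 6 libraries. The Pax5 region in the middle-aged libraries was thus not accompanied by a called TSS peak at those B cell genes.

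T cell genes were more mixed. Of 13 T cell genes, 8 had no TSS peak in any library (61.5%, against 38.5% of all genes), among them Cd3g, Cd247, Cd4, Cd8a, Lck and Lat. Cd3d, whose protein pairs with CD3E in the receptor complex, and Il7r, the interleukin 7 receptor, were open in all 6 libraries with mean ranks of 61.8 and 61.4. Tcf7 was open in 1 young and 3 middle-aged libraries, and Zap70 and Cd5 in 3 libraries each, so that 2 to 5 of the 13 genes were open in a library. Of 7 NK cell genes, Klrb1c was open in all 6 libraries at a mean rank of 27.8, and Eomes was open in 3 libraries. Ncr1, Gzmb, Prf1, Klrd1 and Nkg7 were open in none (71.4%, against 38.5% of all genes). Of 11 neutrophil genes, 8 were open in none (72.7%, against 38.5% of all genes), Elane, Mpo, Prtn3, Ctsg, S100a9 and Ly6g among them. S100a8, Camp and Csf3r were open in all 6.

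The pan-leukocyte and macrophage lists had the highest shares of open genes. Of 10 pan-leukocyte genes, 9 had a TSS peak in all 6 libraries (90%, against 48.4% of all genes), among them Ptprc, the CD45 antigen, Spi1, the factor PU.1, and Tyrobp. Of 16 macrophage genes, 14 were open in all 6 (87.5%), among them Adgre1, Cd68, Mrc1, Cd14, Fcgr1 and Mertk. Cd163 was open in none, and Csf1r was the only gene of any list with at least 2 more young than middle-aged libraries, in 2 young and 0 middle-aged. Of 8 endothelial genes, Cdh5 was open in all 6 at a mean rank of 87.7 (12.5%, against 48.4% of all genes). Tie1 and Emcn were open in none (25%, against 38.5%). Kdr and Esam were open in 5 libraries each, Pecam1 in 3, Tek in 1, and Egfl7 in 1 young and 3 middle-aged libraries. The endothelial list held 3, 4 and 2 open genes in the young and 6, 5 and 4 in the middle-aged libraries. The part of macrophages and endothelial cells in the open regions of Tal1, Gata2, Lmo2 and Ikzf1 was not tested.

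The labelled cell type was checked in the same way. Of 10 stromal genes, Runx2, Twist1, Ebf3 and Kitl had a TSS peak in all 6 libraries. Lepr, the receptor that marks marrow SSPCs, and Prrx1, a limb mesenchyme factor, had none in any. Col1a1 and Pdgfrb were open in 5 libraries each, Cxcl12 in 4, and Pdgfra in 1 young and 3 middle-aged libraries. Of the list, 40% were open in all 6 libraries and 20% in none, against 48.4% and 38.5% of all genes. The list held 8, 7 and 4 open genes in the young and 7, 8 and 8 in the middle-aged libraries, with young 3 the lowest.

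**Figure D5:**
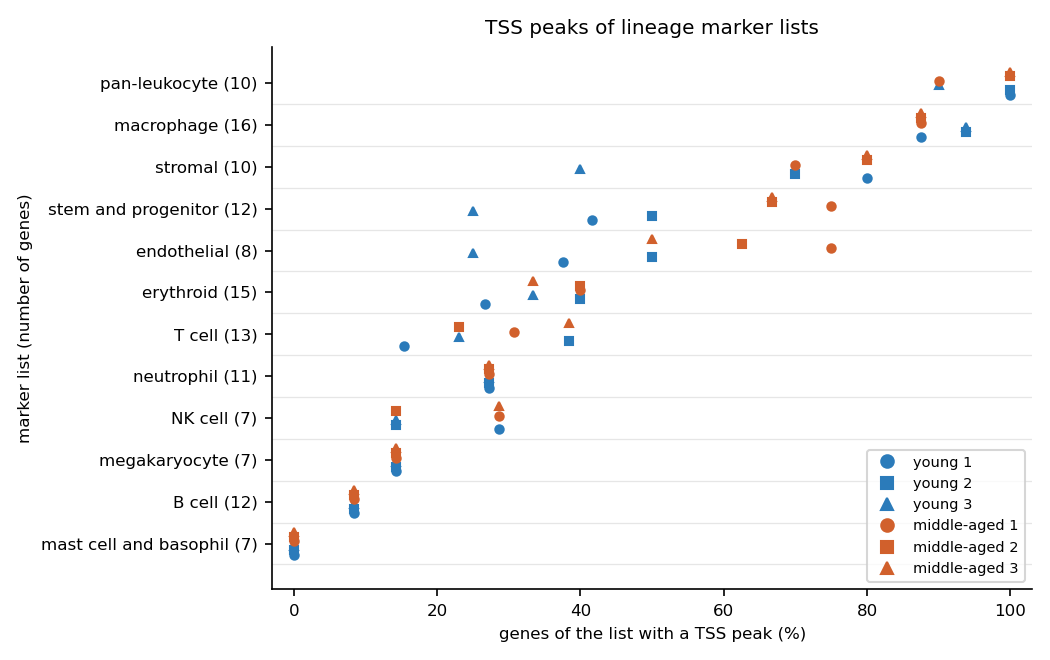
The horizontal axis is the percentage of genes of each marker list that had a TSS peak, with 1 symbol for each library, blue for young and orange for middle-aged, and the number of genes in parentheses. Pan-leukocyte and macrophage lists lie above 80%, mast cell and basophil genes at 0%, and megakaryocyte, B cell and NK cell lists below 30% in every library.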

How the data were processed

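Libraries were grouped by their titles. The authors used bcl2fastq for base calls, Bowtie2 for alignment to mm10, Sambamba for duplicate removal and MACS for peaks, called in each library without a control. A shift for the transposase offset is not given in the sources used here. The deposited score is a whole-number form of the −log10 q. The deposited fold enrichment is a linear ratio of summit pileup to local background. The authors also deposited the −log10 of the p-value and of the q-value at each summit, and the summit offset. From fold enrichment and −log10 p the pileup at each summit was solved, and it came out whole within 0.02 reads for 100% of peaks in every list. Heights are this pileup over the background of the list, and the read depth itself is unknown.

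TSSs were the 54361 protein-coding start sites of GENCODE on the nuclear chromosomes. Peaks of different libraries were merged where they shared at least 1 bp. CpG ratios were computed from the GRCm38.p6 genome over 500 bp either side of each TSS and motifs in windows of 300 bp around summits, and the RefSeq promoter table, which matched 8 of the 9 genes, was identical to it at all 12 promoters compared. Ages were compared by two-sided exact permutation tests over the 20 assignments of libraries, with Benjamini-Hochberg adjustment over the 4 genes with a TSS peak in all 6 libraries. The sign tests of the rank order were added after the ranks were seen. Named from the marker lists are genes open in all 6 libraries or in none, up to 6 a list, and those whose libraries differ by at least 2 between the ages. Further list genes, named to complete a count, were chosen after their values were seen. Of the 26 regions in the loci, 1 is counted but not reported here. The study's DiffBind comparison needs reads and was not repeated. The genes and lists were chosen with earlier results of these data known. No 2 lists shared an interval with the same fold enrichment. The code was tested on simulated data and run in Python 3.11.15 with numpy 2.4.6, pandas 2.3.3 and scipy 1.17.1. Alternatives were stricter, equally long or thinned lists, other windows, overlaps and scalings, a replicate block and each library left out.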

Additional observations from a re-analysis of the deposited data

How the results depend on the processing

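Of 212 alternative values, 186 kept their direction or, for counts of regions, stayed within 1.5 times the reported count, 7 reversed and 19 moved, and 2 could not be computed because Gata2 then lacked a TSS peak in a library (its rank and height at a −log10 q of at least 5). No test could pass 0.05 at 3 libraries a group, so the p-values say nothing of stability. With equally long lists the ratio of called peaks in the loci was 0.86 in place of 1.15, the rank differences were -9.56 for Tal1 and -9.88 for Gata2, and the number of age-specific regions was 0. That number was also 0 with a reciprocal overlap of 50% and was 2 at a −log10 q of at least 5, and it ran from 1 to 3 when 1 library was left out. Over the median height of regions shared by all libraries, the log2 height differences were -0.075 for Tal1 and -0.119 for Gata2, and ranked among those regions only, the rank differences were -4.94 and -2.58. Both of these scalings were chosen after seeing the data. Lmo2 and Ikzf1 kept a higher middle-aged rank, from 9.78 to 20.9 and from 10.1 to 22 points, and a higher log2 height, from 0.142 to 0.727 and from 0.195 to 0.646, under every alternative. The difference in open genes ran from 0.667 to 2, the share of locus peaks from 0.754 to 0.993 of the young share, and regions called in all 6 libraries from 8 to 15. Libraries with a Pax5 TSS peak differed by 2 to 3, and those with a Myb peak by 0 to 3. These are differences in the number of libraries, so leaving out a library that had the peak changed them by construction. With all 6 libraries kept, they moved only with equally long lists, to 2 for Pax5 and 0 for Myb. The cause of the other shifts was not tested.

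Replicate numbers are shared by the ages, but same-numbered libraries did not deviate together (r of 0.00276, -0.00309 and -0.0414 over 22403 regions), so the numbers do not pair them. A replicate block left the TSS peak count difference at 1.67 and gave a peak share ratio of 0.863, and its exact sign permutation test cannot go below p = 0.25. Depth limits what can be said of genes without a peak, most of all in young 3.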
